A study of Mus musculus with 69 samples.

Results

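Major histocompatibility complex (MHC) class II molecules present peptides from engulfed material to CD4 T cells. The mRNAs described here are those of the class II chains and their immediate partners in bone marrow-derived macrophages (BMDMs), taken by gene symbol as 10 of the 24537 genes listed in each of 3 expression tables and in the allele columns of both F1 tables. They are H2-Aa, H2-Ab1 and H2-Eb1, which encode chains of the presenting molecules I-A and I-E, H2-DMa, H2-DMb1 and H2-DMb2, which encode the DM peptide exchanger, H2-Oa and H2-Ob, which encode DO, a partner of DM that restrains it, Cd74, the invariant chain, and Ciita, the coactivator of class II transcription.

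The study asked how inherited variation shapes the macrophage response to IL-4. BMDMs were grown with M-CSF from young adult female mice of the classical laboratory strains C57BL/6J (C57), BALB/cJ (BALB) and NOD/ShiLtJ (NOD) and of the wild-derived strains SPRET/EiJ (SPRET) and PWK/PhJ (PWK) and were left untreated (basal) or given IL-4 at 20 ng/ml for 24 hours, with 3 libraries per group except 2 for basal PWK. Further tables held C57 and SPRET BMDMs at 0, 1, 6 and 24 hours of IL-4, Egr2 fl/fl controls (Egr2WT) and LyzM-Cre Egr2 fl/fl BMDMs (Egr2MKO) at the same times, and basal and 24-hour IL-4 BMDMs of F1 mice of C57 crossed with NOD (F1 C57 × NOD) or with SPRET (F1 C57 × SPRET), each with 2 libraries per group. LyzM-Cre deletes the floxed gene in myeloid cells, and both Egr2 genotypes carry the floxed alleles. Only Egr2MKO carries LyzM-Cre by its label, so the presence of Cre and the loss of Egr2 cannot be told apart. In all, 69 poly(A) RNA libraries in 30 groups were used.

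Peptides reach class II molecules in endosomes, where the invariant chain is cut away, DM removes its last fragment from the groove and DO holds DM back. Ciita does not touch DNA itself but joins RFX, CREB and NF-Y proteins that sit on the conserved W-S, X and Y boxes of class II promoters, so genes that carry them are usually transcribed together. IL-4 is a classical inducer of class II in B cells and also acts on macrophages, where interferon-γ is the stronger inducer. Mice of the haplotype carried by C57 are known to make no I-E, because the gene of its α chain is not transcribed.

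The X and Y boxes are shown because they are where the partners of Ciita are known to sit on class II promoters. In RefSeq promoter windows from 250 bases before to 50 after each start (GRCm38.p6), 7 of the 10 members had an entry, all on chromosome 17. The Y box TGATTGG was searched on both strands, and the X box was searched by its core GCAAC, placed 15 to 45 bases before the Y box. H2-Aa, H2-Eb1, H2-Oa and H2-Ob held both in transcribed orientation, with 26, 25, 26 and 23 bases between them. In the lines below capitals mark the X core and the Y box, 5′ to 3′ on the transcribed strand, which is the minus strand for H2-Aa (chr17:34287855-34287916) and the plus strand for H2-Eb1 (chr17:34305764-34305824), H2-Oa (chr17:34092291-34092352) and H2-Ob (chr17:34238806-34238864).
H2-Aa: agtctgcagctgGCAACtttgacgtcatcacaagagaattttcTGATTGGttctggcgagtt
H2-Eb1: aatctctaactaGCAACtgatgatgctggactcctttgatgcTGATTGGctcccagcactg
H2-Oa: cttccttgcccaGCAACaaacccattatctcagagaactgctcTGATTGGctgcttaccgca
H2-Ob: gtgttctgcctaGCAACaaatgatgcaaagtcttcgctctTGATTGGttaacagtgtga

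Stretches of the DM β-chain promoters around the Y box are set side by side because they differ little while the mRNA levels of H2-DMb1 and H2-DMb2 differ greatly. Both promoter windows held the Y box but not the X core letters, on the plus strand at chr17:34153088-34153146 for H2-DMb1 and chr17:34145117-34145175 for H2-DMb2, and 50 of the 59 bases shown were the same in both. The Y box began at -63 from the start in H2-DMb1 and at -92 in H2-DMb2, and the rest of the windows was not compared.
H2-DMb1: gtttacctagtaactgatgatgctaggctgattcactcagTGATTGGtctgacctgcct
H2-DMb2: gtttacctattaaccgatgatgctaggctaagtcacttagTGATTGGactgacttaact
The window of H2-DMa held neither motif. Among 32851 promoters of the same length, 7.82% held the Y box on either strand and 0.298% held the pair. A match describes these letters only and was not tested as a binding site.

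In the 5-strain table, 9 of the 10 members passed the filter of at least 1 TPM (a transcript abundance scaled for gene length and library depth) in at least 2 libraries, and H2-DMb2 did not. Replicates correlated at 0.99 or more over all genes, and libraries held about 7020000 to 22500000 mapped tags. Macrophage marker mRNAs summed to 11000 to 30700 TPM. The 8 markers of dendritic cells, which carry high class II, summed to 1.34 to 6.45 TPM. The 7 B-cell markers summed to 22.1 to 150 TPM. Of them, 2 had group means of 1 TPM or more in BALB and C57, basal and with IL-4, and 1 in NOD, PWK and SPRET. Nearly all of that sum was Blnk, at group means of 23.1 to 141 TPM, while Ms4a1 and Pax5 had group means of at most 0.0543 and 0.0943 TPM. The B-cell sum went from 70.9 to 74.2 TPM in basal C57 to 109 to 127 TPM with IL-4, and from 22.1 to 25 TPM to 74.6 to 77.2 TPM in SPRET, and its part in the class II values was not tested. Fewer cells of a type and less RNA per cell cannot be told apart in such bulk libraries. The H2 region is also highly polymorphic, and in it reads lost in mapping and lower RNA cannot be told apart in these tables.

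Cd74 was the most abundant member in every strain, and basal BALB BMDMs held by far the most of it. Cd74 read 1789, 1831 and 1803 TPM in the 3 basal BALB libraries, 659, 651 and 684 TPM in C57, 559, 628 and 582 TPM in NOD, 721 and 702 TPM in PWK and 608, 661 and 648 TPM in SPRET. All BALB libraries lay above those of every other strain, as was the case for 10.4% of all genes tested, and the other 4 strains lay close together. BALB exceeded C57 by 1.44 on the log2(TPM + 1) scale, on which all tests were run (SE 0.05, adjusted p = 3.33e-18, limma with Benjamini-Hochberg adjustment over all genes tested). Among neighbours in the order of the other strains, PWK and C57 (adjusted p = 0.115) and C57 and SPRET (adjusted p = 0.296) did not differ past the threshold, and SPRET exceeded NOD by 0.12 (adjusted p = 0.0291). NOD minus C57 was -0.17 (adjusted p = 0.00226), a direction that turned to 0.23 when libraries were scaled by median ratios.

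The α and β chains of I-A followed the same high level in BALB. H2-Aa read 529, 550 and 526 TPM in basal BALB against 156, 168 and 149 TPM in C57, and 191 to 208 TPM in NOD, 267 to 289 TPM in PWK and 119 to 125 TPM in SPRET. H2-Ab1 read 426, 472 and 471 TPM in basal BALB, 215 to 230 TPM in C57, 237 to 242 TPM in PWK, 118 to 142 TPM in NOD and 112 to 123 TPM in SPRET. For both genes no BALB library overlapped any other strain, at log2 differences from C57 of 1.76 (adjusted p = 7.59e-20) for H2-Aa and 1.04 (adjusted p = 6.54e-12) for H2-Ab1. The order of the other strains was not the same for the pair: PWK came second for H2-Aa, while C57 and PWK were not told apart for H2-Ab1 (log2 difference 0.12, adjusted p = 0.201).

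H2-Eb1, the β chain of I-E, fell into a high and a low set of strains. Basal H2-Eb1 read 232, 241 and 239 TPM in BALB, 119, 129 and 123 TPM in NOD and 91.0, 91.2 and 97.1 TPM in C57. It read only 9.12 and 5.58 TPM in PWK and 10.0, 8.28 and 8.54 TPM in SPRET. The log2 difference from C57 was -3.53 for PWK (adjusted p = 1.02e-18) and -3.25 for SPRET (adjusted p = 2.32e-19). PWK and SPRET still carried H2-Aa and H2-Ab1 at more than 100 TPM in each library.

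The row of the partner α chain, H2-Ea-ps, showed a different pattern. It stood at 216 to 232 TPM in basal BALB and 55.8 to 66.6 TPM in basal SPRET, and at no more than 1.02 TPM in any library of C57, NOD or PWK, basal or with IL-4. In BALB both I-E chains were therefore abundant, in C57 and NOD only the β chain, in SPRET mainly the α-chain row, and in PWK neither exceeded 9.12 TPM. H2-Ea-ps is annotated as a pseudogene after the C57 reference.

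**Figure D1:**
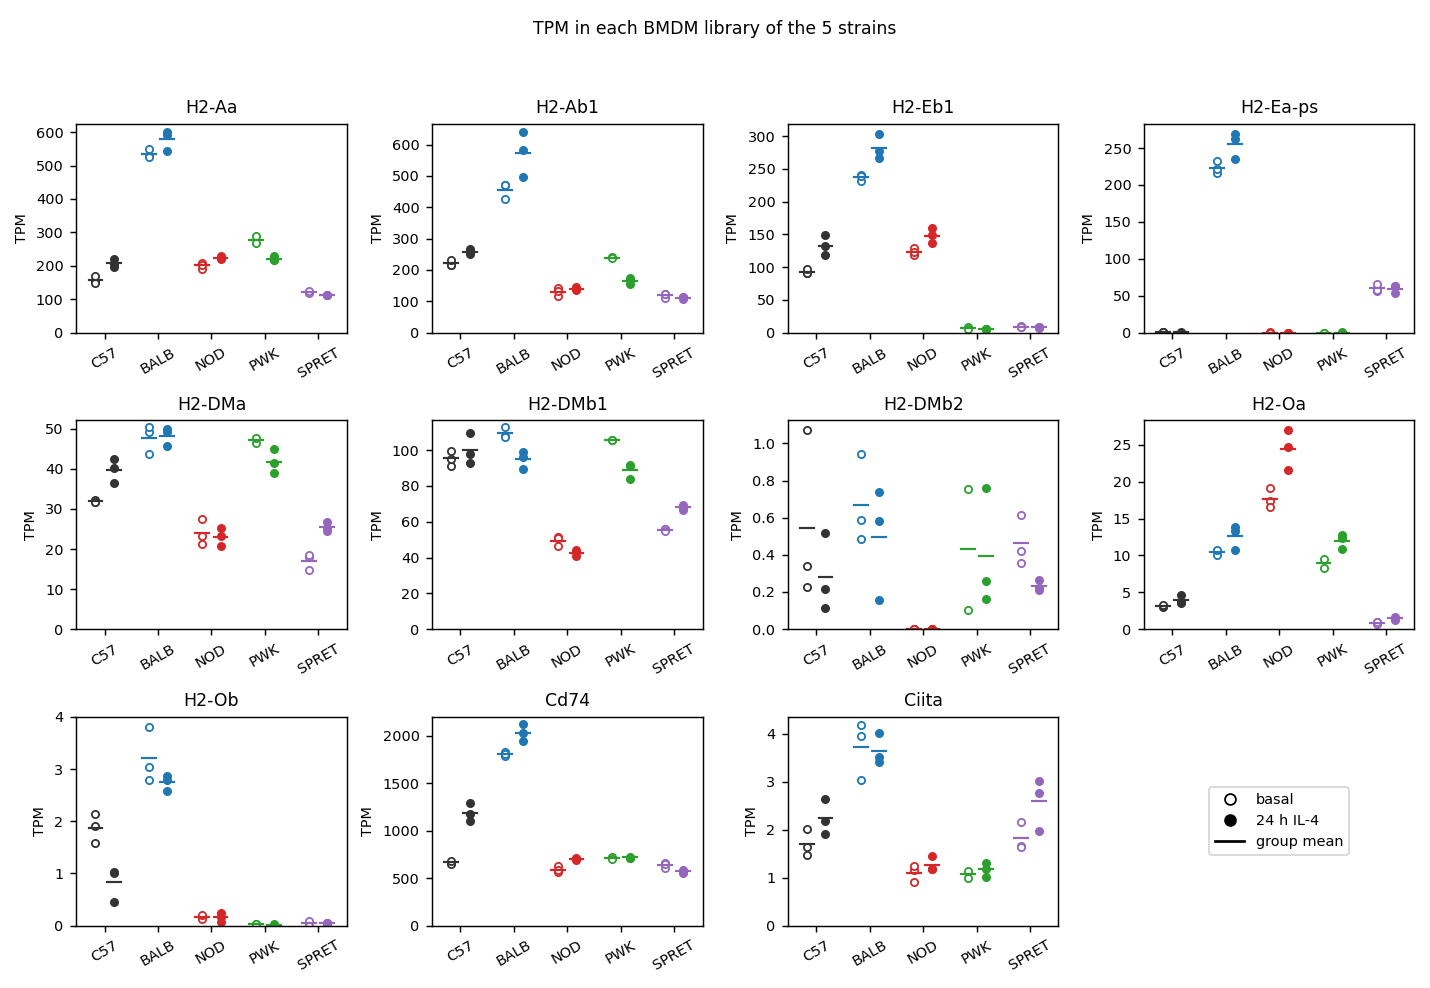
TPM (y axis) of the 10 members and H2-Ea-ps in each basal (open points) and 24-hour IL-4 (filled points) BMDM library of 5 strains (x axis), with bars at group means. BALB lies highest for Cd74, H2-Aa, H2-Ab1 and H2-Eb1, H2-Eb1 stays at or below 10.0 TPM in PWK and SPRET, and H2-Oa is highest in NOD.

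The DM and DO genes were ordered in other ways. H2-DMa read 43.8 to 50.4 TPM in basal BALB, 46.5 and 47.8 TPM in PWK, 31.6 to 32.3 TPM in C57, 21.2 to 27.6 TPM in NOD and 14.8 to 18.5 TPM in SPRET. H2-DMb1 read 107 to 113 TPM in BALB, 106 TPM in both PWK libraries, 91.2 to 99.7 TPM in C57, 54.6 to 56.2 TPM in SPRET and 46.2 to 51.2 TPM in NOD, so NOD and SPRET were the low strains for both DM chains. H2-DMb2, whose mature mRNA shares 14.6% of its 75-base windows with H2-DMb1, never exceeded 1.07 TPM and was listed at 0 in all 6 NOD libraries.

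H2-Oa, the DO α chain, was highest in NOD and lowest in SPRET, both of them low for the DM chains. Its basal values were 17.4, 19.1 and 16.6 TPM in NOD, 10.6, 10.0 and 10.8 TPM in BALB, 8.32 and 9.52 TPM in PWK, 3.04, 3.20 and 3.30 TPM in C57 and 0.931, 0.719 and 1.01 TPM in SPRET. NOD exceeded C57 by 2.16 (adjusted p = 1.22e-15) and SPRET lay below it (-1.15, adjusted p = 2.40e-10). Of the neighbours in this order, PWK and BALB were not told apart (-0.22, adjusted p = 0.0985). Its partner H2-Ob showed nothing of this order in NOD. H2-Ob read 2.78 to 3.81 TPM in basal BALB and 1.59 to 2.13 TPM in C57, and stayed at or below 0.194 TPM in basal NOD, PWK and SPRET. DO α mRNA thus stood highest in a strain with almost no DO β mRNA.

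Ciita was scarce in all strains. It read 4.19, 3.95 and 3.04 TPM in basal BALB, 1.64, 2.01 and 1.48 TPM in C57, 1.67, 2.17 and 1.65 TPM in SPRET, 0.906, 1.17 and 1.24 TPM in NOD and 0.998 and 1.15 TPM in PWK. BALB libraries lay above all others, 0.80 over C57 (adjusted p = 5.64e-06). NOD and PWK lay below C57 (-0.36, adjusted p = 0.00871, and -0.38, adjusted p = 0.016), and each call ended under 4 of 37 other settings, namely both other scalings, the fit without C57 basal replicate 2 and the fit without replicate 1 of the basal NOD or PWK group. SPRET was not told apart from C57 (0.06, adjusted p = 0.662). In SPRET, H2-Ab1, H2-Eb1, H2-DMa and H2-DMb1 were lower than in C57, whereas the 95% interval of the Ciita difference ran from -0.18 to 0.31.

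Counted together at baseline, 13 of 36 member tests against C57 passed adjusted p under 0.05 with more than a 2-fold difference (called, below), where 13.3% of all gene tests did. BALB was higher for all 9 members, 5 of them called, against 43.2% of all genes passing adjusted p under 0.05. In the 5-strain table SPRET was lower for 7 and higher for none, with 3 called (68.4% of all genes passed), an order that some members did not keep in the time course below. NOD was higher for 3 and lower for 6 (74.2% of all genes), and PWK higher for 4 and lower for 3 (61.3% of all genes). The median log2 difference of the 9 members was -0.87 in SPRET, 0.12 in PWK, -0.36 in NOD and 1.04 in BALB, beside 0.02, -0.16, -0.30 and 0.04 over all genes tested.

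The MHC class I pathway, which includes genes of the same chromosome 17 region and the Ciita relative Nlrc5, is given beside it, and the lists were not tested against each other. None of its 12 genes was higher in basal SPRET than in C57 and all 12 were lower, 7 of them called (68.4% of all genes passed and 18.1% were called), led by H2-T23 (-3.29), Tap1 (-2.79), H2-D1 (-1.93) and Tapbp (-1.83). In BALB, 2 class I genes were higher and 7 lower, with none called, beside 43.2% of all genes passing and 4.81% called. In NOD 8 were higher and 1 lower, beside 74.2% passing and 16.9% called. A list of genes of class II transcription had 2 calls in all, against the same shares of all genes. Of 10 such genes, 1 was lower in BALB, 6 were lower in NOD, with Kat2b called (-1.18), 3 were lower in PWK, and in SPRET 4 were higher and 1 lower, with Rfxap called (1.26).

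Genes of antigen processing also differed between the strains at baseline. Of 11 tested, 6 were higher and 3 lower in BALB, with the protease gene Ctsl (2.00) and Cd83 (1.66), whose product stabilises surface class II, called (43.2% of all genes passed and 4.81% were called). PWK had 1 higher and 10 lower, with Lgmn (-2.12), Sppl2a (-1.45) and Ctss (-1.05) called (61.3% and 13.3% of all genes). NOD had 2 higher and 7 lower, with Cd83 (2.58), March1 (-2.21), Ctss (-1.86) and Sppl2a (-1.04) called (74.2% and 16.9% of all genes), and SPRET 3 higher and 6 lower, with Ctss (-2.23) called (68.4% and 18.1% of all genes). Ctss encodes the protease that trims the invariant chain and March1 the ligase that sends class II for degradation.

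With 24 hours of IL-4, Cd74 and the presenting chains rose in C57, and in the other strains members rose, fell or did not pass the test. Cd74 went from 659, 651 and 684 TPM to 1102, 1177 and 1290 TPM in C57, with no overlap. In BALB it went from 1789 to 1831 TPM to 1944 to 2122 TPM, and in NOD from 559 to 628 TPM to 693 to 713 TPM. In PWK it read 712 to 724 TPM beside 702 and 721 TPM, and in SPRET it went from 608 to 661 TPM down to 552 to 590 TPM. The log2 change was 0.84 in C57 (SE 0.05, adjusted p = 2.65e-13). It was 0.25 in NOD (adjusted p = 0.000236), 0.17 in BALB (adjusted p = 0.00899) and -0.17 in SPRET (adjusted p = 0.00676), and PWK showed no change past the threshold (0.01, adjusted p = 0.919).

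In the 5-strain table the chains of I-A and I-E rose in C57, and those of I-A fell in PWK. In C57, H2-Aa went from 149 to 168 TPM to 198 to 221 TPM (log2 change 0.40, adjusted p = 3.44e-07), H2-Eb1 from 91.0 to 97.1 TPM to 119 to 149 TPM (0.51, adjusted p = 0.000357) and H2-Ab1 from 215 to 230 TPM to 251 to 266 TPM (0.22, adjusted p = 0.0146). The H2-Ab1 call ended under 3 of 37 other settings, namely quantile scaling and the fits without C57 IL-4 replicate 3 or C57 basal replicate 1. In PWK, H2-Aa fell from 289 and 267 TPM to 216 to 229 TPM (-0.33, adjusted p = 5.25e-05) and H2-Ab1 from 242 and 237 TPM to 156 to 173 TPM (-0.53, adjusted p = 1.25e-05), while H2-Eb1 at 5.43 to 6.08 TPM did not change past the threshold. BALB raised H2-Ab1 (0.32, adjusted p = 0.0010) from 426 to 472 TPM to 496 to 639 TPM. NOD raised H2-Aa by 0.15 (adjusted p = 0.0193), a change that turned to -0.04 with median-ratio scaling. In SPRET none of the chains changed past the threshold.

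The DM and DO genes answered IL-4 in a strain-dependent way. H2-DMa rose in SPRET from 14.8, 17.9 and 18.5 TPM to 25.3, 24.5 and 26.7 TPM (log2 change 0.56, adjusted p = 1.31e-05) and in C57 from 31.6 to 32.3 TPM to 36.4 to 42.4 TPM (0.30, adjusted p = 0.00864). H2-DMb1 rose in SPRET from 54.6 to 56.2 TPM to 66.7 to 69.4 TPM (0.29, adjusted p = 0.000139) and fell in BALB (-0.20, adjusted p = 0.00675), NOD (-0.21, adjusted p = 0.00521) and PWK (-0.25, adjusted p = 0.00419). H2-Oa rose in NOD to 21.5, 27.0 and 24.8 TPM (0.44, adjusted p = 0.00172), in PWK to 10.8 to 12.8 TPM (0.39, adjusted p = 0.0126) and in SPRET to 1.25 to 1.59 TPM (0.38, adjusted p = 0.00338). The PWK call of H2-Oa ended under 5 of 37 other settings, namely both other scalings, the fit of only the groups compared and the fits without PWK IL-4 replicate 2 or PWK basal replicate 1. H2-Ob fell in C57 from 1.59, 2.13 and 1.91 TPM to 1.03, 1.00 and 0.446 TPM (-0.67, adjusted p = 2.13e-05), the only member that fell in that strain.

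Ciita itself moved little at 24 hours. It read 2.65, 2.18 and 1.91 TPM with IL-4 in C57 (log2 change 0.26, adjusted p = 0.0974), overlapping its basal values, and 3.03, 1.98 and 2.77 TPM in SPRET (0.34, adjusted p = 0.024). The SPRET call of Ciita ended under 7 of 37 other settings, namely both other scalings, the fit of only the groups compared and the fits without replicate 1 or 3 of the basal or the IL-4 SPRET group.

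None of the 45 member tests of IL-4 was called, while 2.62% of all gene tests were. Passing adjusted p under 0.05 were 5 members up and 1 down in C57 (35.5% of all genes passed), 2 up and 1 down in BALB (34.2% of all genes), 3 up and 1 down in NOD (34.3% of all genes), 1 up and 3 down in PWK (24.7% of all genes) and 4 up and 1 down in SPRET (44.4% of all genes). The median log2 change of the members was 0.26, 0.11, 0.11, -0.17 and 0.00 in this order, beside -0.04, -0.11, 0.12, 0.08 and 0.11 over all genes.

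**Figure D2:**
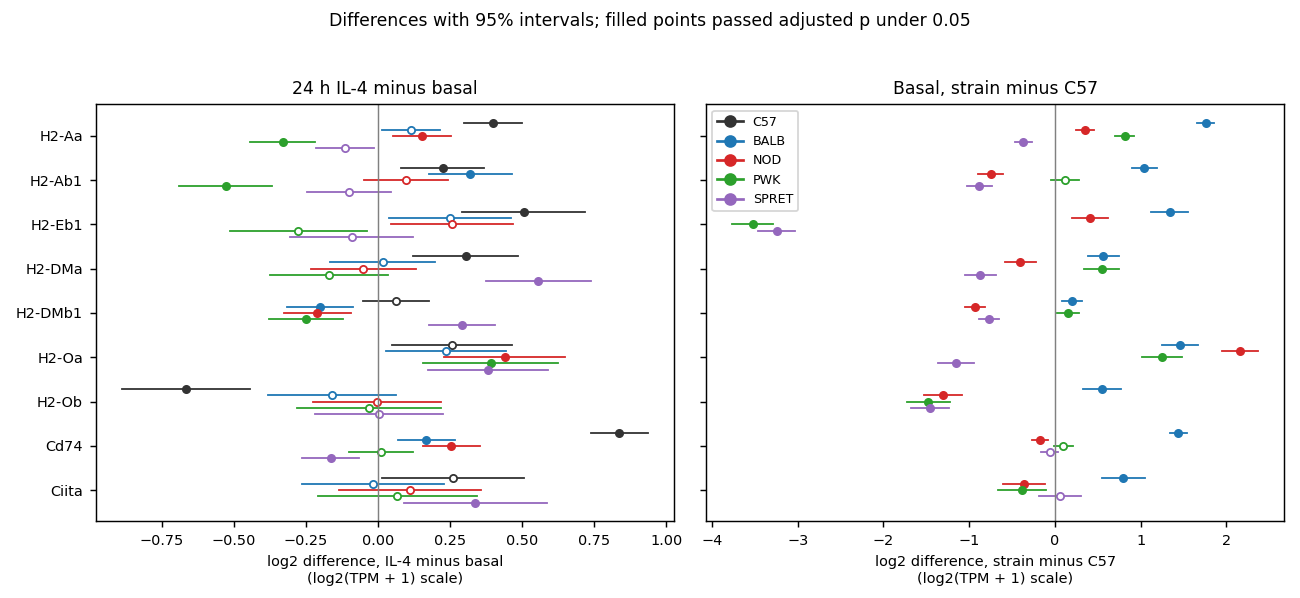
Log2 differences (x axis, log2(TPM + 1) scale) of 9 members for 24-hour IL-4 minus basal in each strain (left) and for each basal strain minus C57 (right), with 95% intervals and filled points for adjusted p under 0.05. Cd74 in C57 has the largest rise at 0.84, and H2-Eb1 in PWK and SPRET lies more than 3 log2 units below C57.

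The difference of the IL-4 responses was tested directly against C57. For Cd74 the strain response minus that of C57 was -1 in SPRET (adjusted p = 2.06e-11), -0.83 in PWK (adjusted p = 5.57e-09), -0.67 in BALB (adjusted p = 1.07e-07) and -0.58 in NOD (adjusted p = 4.56e-07). The SPRET value was the only one of the members called, where 2.42% of all gene tests were. H2-Aa also responded less than in C57 in all 4 strains, from -0.25 in NOD to -0.73 in PWK. The responses that passed were 1 greater and 3 smaller in BALB (15.8% of all genes passed), 1 and 4 in NOD (33.3% of all genes), 1 and 6 in PWK (22.4% of all genes) and 2 and 4 in SPRET (33.4% of all genes). All of these share the C57 libraries. The Cd74 value of SPRET lay on the 2-fold line, and leaving out any 1 of C57 basal replicate 1 or 2, C57 IL-4 replicate 3, SPRET basal replicate 2 or 3 or SPRET IL-4 replicate 1 or 3 put it at -0.94 to -0.998, short of a call with adjusted p still under 0.05.

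Among genes known to act on Ciita, IL-4 raised Socs1, an inhibitor of cytokine signalling, and Irf4. Both were called in C57 (Socs1 2.91, Irf4 1.89), BALB (Socs1 1.18, Irf4 1.11) and SPRET (Socs1 5.70, Irf4 2.51), and neither in NOD or PWK. Of the 12 genes of this list 6 rose and 1 fell in C57 (35.5% of all genes passed and 3.8% were called) and 6 rose and 3 fell in SPRET (44.4% and 3.94%), while 2.08% of all genes were called in BALB. Of the 11 antigen processing genes, 6 rose and 3 fell in C57, with Cd83 (2.39), Ctsl (1.70) and the protease gene Lgmn (1.12) called, and 8 rose and 1 fell in SPRET, with Ctsl (1.70) called, beside the same shares of all genes.

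Dendritic-cell markers moved with some of these comparisons. Their sum was 1.34 to 1.79 TPM in basal C57, 4.6 to 5.71 TPM in basal BALB, 5.93 to 6.23 TPM in basal PWK, 2.82 to 3.35 TPM in PWK with IL-4 and 1.52 to 2.11 TPM in C57 with IL-4, and 0 to 2 of the 8 markers reached 1 TPM. Of the 2 that passed the filter, 1 was called higher than in C57 in basal BALB and 1 in basal PWK (4.81% and 13.3% of all genes were called). Both were higher with IL-4 in SPRET past adjusted p under 0.05 (44.4% of all genes passed). Flt3, another of the 8, had group means of at most 0.172 TPM. Neutrophil markers summed to 106 to 131 TPM in basal C57, 16.6 to 24.3 TPM in C57 with IL-4 and 543 to 596 TPM in PWK. The part of such cells in the class II values was not tested.

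In the time course, 8 of the 10 members passed the filter, H2-DMb2 and H2-Ob being too low. Libraries held about 5700000 to 24000000 tags and dendritic-cell markers summed to 0.483 to 1.29 TPM in C57 and 4.03 to 8.94 TPM in SPRET. From 0 to 24 hours, neutrophil markers went from 66.2 to 94.2 TPM to 6.43 to 7.97 TPM in C57 and from 67.8 to 73.6 TPM to 71.8 to 91.7 TPM in SPRET, and B-cell markers, nearly all Blnk, from 72.7 to 73.4 TPM to 134 to 136 TPM in C57 and from 51.5 to 52.8 TPM to 112 to 113 TPM in SPRET. The part of such cells was not tested. Cd74 in C57 rose early and stayed up, at 393 and 415 TPM at 0 hours, 414 and 435 TPM at 1 hour, 486 and 491 TPM at 6 hours and 456 and 488 TPM at 24 hours. In SPRET it rose to a plateau and then dropped, at 524 and 514 TPM, 615 and 576 TPM, 599 and 597 TPM and, at 24 hours, 375 and 353 TPM. The SPRET drop left both 24-hour libraries under both basal ones. The log2 changes from 0 hours were 0.27 at 6 hours (adjusted p = 0.00207) and 0.22 at 24 hours (adjusted p = 0.00395) in C57, and 0.20 at 1 hour (adjusted p = 0.0299), 0.20 at 6 hours (adjusted p = 0.00855) and -0.51 at 24 hours (adjusted p = 6.00e-06) in SPRET. From 6 to 24 hours SPRET Cd74 fell by 0.71 (adjusted p = 1.11e-06).

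Ciita had its highest mean at 6 hours in both strains. It read 9.85 and 8.74 TPM at 0 hours, 12.5 and 11.3 TPM at 1 hour, 14.9 and 15 TPM at 6 hours and 11.4 and 10.5 TPM at 24 hours in SPRET. The C57 values were 4.31 and 5.20, 4.27 and 4.75, 5.75 and 6.22 and then 2.90 and 3.70 TPM. The SPRET rise at 6 hours was 0.63 (adjusted p = 0.00102) and the C57 fall at 24 hours was -0.42 (adjusted p = 0.011). The C57 rise at 6 hours did not pass. SPRET held more Ciita than C57 at 0 hours (0.84, adjusted p = 3.71e-05), with more than 8 TPM in each library.

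H2-DMa also stood highest at 6 hours. In SPRET it went from 36.1 and 31.1 TPM to 52.0 and 45.5 TPM at 6 hours and 42.3 and 38.9 TPM at 24 hours, and in C57 from 26.1 and 27.5 TPM to 33.9 and 32.9 TPM at 6 hours and then down to 18.3 and 18.8 TPM. In C57 the 24-hour value lay below that at 0 hours (-0.51, adjusted p = 0.00104), whereas in SPRET it stayed above (0.27, adjusted p = 0.0434). The latter call ended under 13 of 24 other settings, and the 6-hour rise in C57 (0.31, adjusted p = 0.0394) ended under 10. H2-DMb1 fell in C57 from 59.0 and 59.3 TPM to 46.7 and 45.4 TPM at 24 hours (-0.35, adjusted p = 0.00122) and read 75.3 and 76.8 TPM beside 69.7 and 64.8 TPM in SPRET.

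The presenting chains fell late in SPRET. H2-Aa went from 166 and 149 TPM at 0 hours through 187 and 176 TPM at 1 hour to 125 and 105 TPM at 24 hours (-0.45, adjusted p = 0.00126), H2-Ab1 from 123 and 118 TPM to 87.6 and 69.3 TPM (-0.62, adjusted p = 0.000341), and H2-Eb1 from 16.5 and 12.4 TPM to 11.7 and 8.48 TPM (-0.48, adjusted p = 0.0184). In C57, H2-Aa read 130 and 127 TPM at 0 hours and 123 and 139 TPM at 24 hours, and H2-Eb1 48.2 and 49.4 TPM and then 51.6 and 49.6 TPM. H2-Ab1 read 127 and 140 TPM at 0 hours and 114 and 116 TPM at 24 hours. None of these chains changed past the threshold in C57.

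By count, no member passed limma's test at 1 hour in C57, where 0 had an unadjusted p under 0.05 (3.95% of all genes passed), while 2 rose in SPRET, Cd74 and H2-Oa (8.75% of all genes). At 6 hours 2 rose in C57 (20.4% of all genes) and 4 in SPRET (30.6% of all genes). At 24 hours 1 rose and 3 fell in C57 (39.4% of all genes) and 1 rose and 4 fell in SPRET (36.6% of all genes). None was called in any of the 6 tests, where 3.47% of all gene tests were. The SPRET response at 24 hours exceeded that of C57 for Ciita (0.64), H2-DMa (0.78) and H2-DMb1 (0.53) and fell short of it for Cd74 (-0.73), H2-Aa (-0.48) and H2-Ab1 (-0.41), the last ending under 18 of 24 other settings. These 6 of 8 compare with 28.9% of all genes passing, and none was called, where 3.14% of all gene tests were. When only the groups compared were fitted, 7 of the 17 IL-4 changes of the time course passed.

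**Figure D3:**
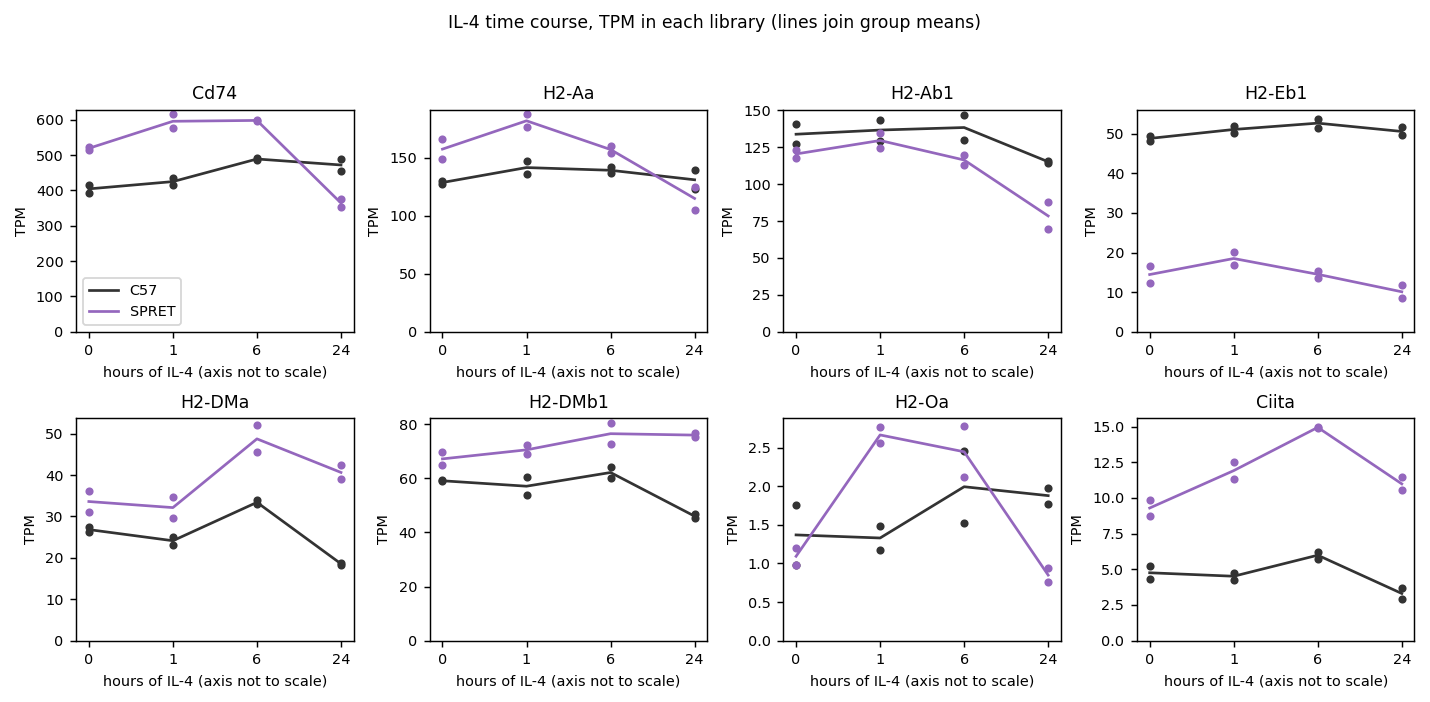
TPM (y axis) of 8 members in each C57 and SPRET library at 0, 1, 6 and 24 hours of IL-4 (x axis, not to scale), with lines through group means. In SPRET Cd74 and the H2-Aa, H2-Ab1 and H2-Eb1 chains end at 24 hours below their start. Ciita and H2-DMa have their highest mean at 6 hours in both strains.

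Some values differed between the 2 tables that hold C57 at 24 hours. H2-DMa rose by 0.30 in the 5-strain table and fell by 0.51 in the time course, and basal Ciita stood at 1.48 to 2.01 TPM in the former and 4.31 and 5.20 TPM in the latter. Cd74 rose by 0.84 in the former and 0.22 in the latter, H2-Aa changed by 0.40 and 0.02 (adjusted p = 0.865) and H2-Eb1 by 0.51 and 0.05 (adjusted p = 0.816). H2-Ab1 rose by 0.22 in the 5-strain table. In the time course its 24-hour libraries (114 and 116 TPM) lay below those at 0 hours (127 and 140 TPM), with no change past the threshold. In SPRET at 24 hours H2-Aa changed by -0.12 (adjusted p = 0.057) in the 5-strain table and -0.45 in the time course, and H2-Ab1 by -0.10 (adjusted p = 0.264) and -0.62. For SPRET, basal H2-DMa was 14.8 to 18.5 TPM in the former and 36.1 and 31.1 TPM in the latter. Basal H2-Aa, H2-DMa and H2-DMb1 were lower in SPRET than in C57 in the former and higher in the latter. At 0 hours of the time course they read 149 to 166, 31.1 to 36.1 and 64.8 to 69.7 TPM in SPRET. The C57 values were 127 to 130, 26.1 to 27.5 and 59.0 to 59.3 TPM. Cd74 was also higher there in SPRET (514 to 524 against 393 to 415 TPM). H2-Eb1 stayed lower (12.4 to 16.5 against 48.2 to 49.4 TPM), as did the H2-Ab1 mean (120 against 134 TPM). The tables are separate experiments and were not tested against each other.

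Loss of Egr2, a transcription factor that IL-4 induces, went with more class II mRNA at every time. Egr2 itself read 23.6 and 21.3 TPM in basal Egr2WT and 101 and 99.5 TPM at 24 hours, against 0.859 and 0.854 TPM and 4.72 and 7.05 TPM in Egr2MKO, so each genotype label held in each library. Libraries held about 4690000 to 32900000 tags, and all 10 members passed the filter.

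Cd74 stood about 2-fold higher in Egr2MKO. It read 301 and 295 TPM in basal Egr2WT and 568 and 614 TPM in basal Egr2MKO. At 1 hour of IL-4 the values were 297 and 264 TPM against 574 and 570 TPM, at 6 hours 403 and 425 TPM against 748 and 759 TPM, and at 24 hours 590 and 579 TPM against 1199 and 1181 TPM. The genotypes did not overlap at any time, and 11.1% of all genes tested were higher in Egr2MKO without overlap at each of the 4 times. The log2 differences were 0.99 (SE 0.05, adjusted p = 2.14e-07), 1.03, 0.86 and 1.03 (adjusted p = 2.36e-08) in the order of time.

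Ciita differed by the same measure. It read 4.43 and 3.90 TPM in basal Egr2WT and 8.70 and 8.89 TPM in Egr2MKO, 3.49 and 3.65 TPM against 8.40 and 8.40 TPM at 1 hour, 9.98 and 7.74 TPM against 16.2 and 21.3 TPM at 6 hours, and 7.00 and 6.11 TPM against 16.4 and 15.9 TPM at 24 hours. The log2 differences were 0.92 (adjusted p = 0.000689), 1.04, 1.00 and 1.18 (adjusted p = 2.59e-05), with no overlap at any time.

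The presenting chains moved with them. H2-Aa read 107 and 89.0 TPM in basal Egr2WT and 183 and 183 TPM in Egr2MKO (0.90, adjusted p = 9.53e-06), H2-Ab1 69.0 and 72.2 TPM against 132 and 146 TPM (0.97, adjusted p = 7.90e-07) and H2-Eb1 30 and 36.0 TPM against 60.0 and 66.1 TPM (0.92, adjusted p = 0.000151). At 24 hours the values were 148 and 141 TPM against 256 and 242 TPM for H2-Aa, 89.4 and 81.7 TPM against 157 and 154 TPM for H2-Ab1, and 50.9 and 54.2 TPM against 91.2 and 78.8 TPM for H2-Eb1. These 3 chains were higher in Egr2MKO without overlap at each of the 4 times.

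The DM genes did not share the difference past the threshold. Basal H2-DMa read 25.1 and 24.3 TPM in Egr2WT and 28.9 and 26.8 TPM in Egr2MKO (0.16, adjusted p = 0.27), and H2-DMb1 47.9 and 43.2 TPM against 51.9 and 57.1 TPM (0.25, adjusted p = 0.0728). H2-DMb2 and H2-Ob stayed at or below 1.88 and 1.81 TPM in both genotypes. H2-Oa was higher in Egr2MKO only at 6 hours (2.81 and 3.26 TPM against 2.01 and 1.06 TPM, 0.69, adjusted p = 0.0484), a call that ended under 18 of 24 other settings.

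Cd74, Ciita, H2-Aa, H2-Ab1 and H2-Eb1 were thus the 5 members higher in Egr2MKO at 0 hours (11.5% of all genes passed), 1 hour (11.4% of all genes) and 24 hours (37.4% of all genes), joined by H2-Oa at 6 hours (20.6% of all genes), and none was lower. Of these 21 differences 5 were called, where 2.19% of all gene tests were: Cd74 and Ciita at 1 and 24 hours and Ciita at 6 hours. The median log2 difference of the 10 members was 0.64, 0.82, 0.73 and 0.41 at the 4 times, beside 0.02, 0.01, 0.02 and 0.12 over all genes. Of 12 class I pathway genes, 7, 8, 11 and 11 were also higher in Egr2MKO at the 4 times, none called, with a median of 0.28 at 0 hours, where 0.853% of all genes were called. Dendritic-cell markers summed to 0.769 to 0.786 TPM in basal Egr2WT and 1.29 to 2.05 TPM in basal Egr2MKO. In the same order, neutrophil markers summed to 61.4 to 64.5 and 39.6 to 44.7 TPM, T-cell markers to 1.66 to 2.08 and 3.27 to 3.4 TPM, B-cell markers to 74.4 to 76.8 and 85.4 to 86.2 TPM and macrophage markers to 24400 to 25900 and 20800 to 20900 TPM, with 6 of the 8 macrophage markers higher and 1 lower in Egr2MKO. The part of such differences in the class II values was not tested.

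**Figure D4:**
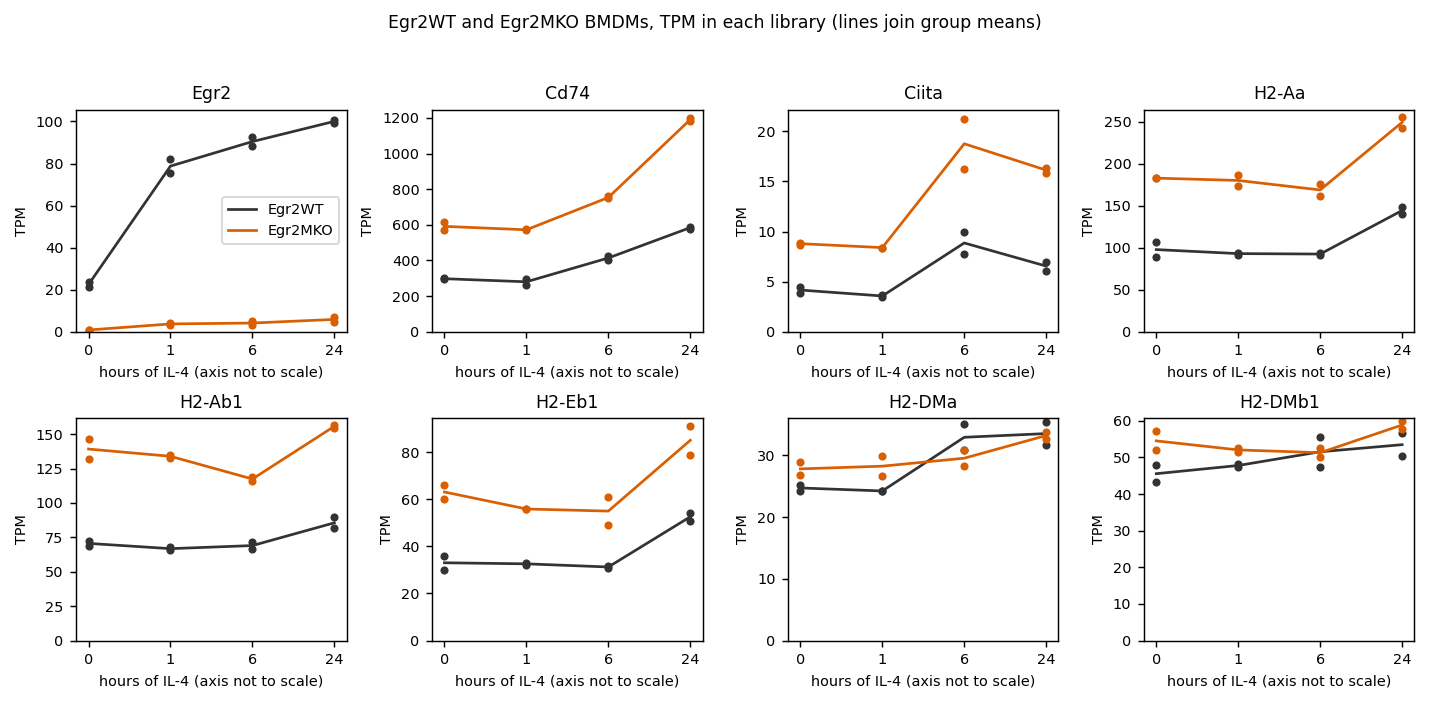
TPM (y axis) of Egr2 and 7 members in each Egr2WT and Egr2MKO library at 0, 1, 6 and 24 hours of IL-4 (x axis, not to scale), with lines through group means. Cd74, Ciita, H2-Aa, H2-Ab1 and H2-Eb1 lie higher in Egr2MKO at all 4 times without overlap, and H2-DMa and H2-DMb1 do not.

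Class II mRNA rose with IL-4 in both genotypes. In Egr2WT, Cd74, Ciita and H2-DMa rose at 6 hours (log2 changes 0.47, 0.93 and 0.40), 3 of 10 members beside 25.5% of all genes, and Cd74 (0.97), Ciita (0.55), H2-Aa (0.56), H2-Ab1 (0.27), H2-DMa (0.42) and H2-Eb1 (0.66) rose at 24 hours, beside 30.3% of all genes. In Egr2MKO, Cd74 (0.35) and Ciita (1.00) rose and H2-Ab1 fell (-0.24) at 6 hours, beside 29.8% of all genes, and Cd74 (1.01), Ciita (0.81), H2-Aa (0.44), H2-DMa (0.25) and H2-Eb1 (0.42) rose at 24 hours, beside 28% of all genes. The rise of H2-DMa in Egr2MKO ended under 12 of 24 other settings. Ciita at 6 hours and Cd74 at 24 hours were called in Egr2MKO, where 2.9% of all gene tests of IL-4 were. No member passed limma's test at 1 hour in either genotype, and 0 had an unadjusted p under 0.05. The response to IL-4 did not differ between genotypes past the threshold for any member at any time, and 0, 3 and 0 of 10 members had an unadjusted p under 0.05 at 1, 6 and 24 hours (H2-Ab1, H2-DMa and H2-DMb1 at 6 hours). At 24 hours the difference was 0.04 for Cd74 (adjusted p = 0.798) and 0.26 for Ciita (adjusted p = 0.442).

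Among genes that act on Ciita, 9 of 12 were higher and 2 lower in Egr2MKO at 24 hours, beside 37.4% of all genes passing and 4.55% called. Of these, 2 were called higher, among them Irf1 (1.14), of the interferon-γ pathway to Ciita, and 1 was called lower, Irf4 (-1.32). At 0 hours 4 of the 12 were higher, beside 11.5% of all genes passing, and none was called. Of the 10 genes of the class II transcription list, none passed at 0 hours and 3 were higher at 24 hours.

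In F1 BMDMs both parental alleles share 1 nucleus, and the deposited values split each gene's expression between them by reads that carry parental variants. Counts were scaled in that step, so F1 levels need not be on the TPM scale of the other tables. In F1 C57 × SPRET, H2-Eb1 came more from the C57 allele, at 28.5 and 26.1 TPM against 13.0 and 11.9 TPM from SPRET when basal and 47.4 and 46.8 TPM against 19.4 and 20.4 TPM with IL-4. The ratio of C57 to SPRET was 2.20 and 2.19 in the basal replicates and 2.44 and 2.29 with IL-4. The log2 differences were 1.07 (adjusted p = 0.0128) and 1.2 (adjusted p = 0.0175), both called, where 7.59% (basal) and 4.44% (IL-4) of all genes tested were. In the strain table basal H2-Eb1 had stood at 93.1 ± 3.4 TPM (SD, n = 3) in C57 and 8.94 ± 0.93 TPM (SD, n = 3) in SPRET. The parental gap was smaller in the basal libraries of the time course, at 48.2 and 49.4 TPM in C57 and 16.5 and 12.4 TPM in SPRET. These parental values come from other tables and were not tested against the F1.

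H2-DMb2 and Ciita also leaned to the C57 allele with IL-4. H2-DMb2 read 5.97 and 6.62 TPM from C57 and 0.698 and 0.740 TPM from SPRET (log2 difference 2.09, adjusted p = 0.0143, called), and 1.14 and 3.03 TPM against 0.610 and 1.60 TPM when basal. Ciita read 15.5 and 16.5 TPM from C57 and 6.77 and 8.80 TPM from SPRET with IL-4 (0.96, adjusted p = 0.0287), and 11 and 13.4 TPM against 7.50 and 9.49 TPM when basal. The parental strains did not show this lean. Their basal Ciita values overlapped in the 5-strain table. At 0 hours of the time course SPRET was higher (9.85 and 8.74 TPM against 4.31 and 5.20 TPM in C57). Parents and F1 were not tested against each other. H2-Ea-ps leaned to the SPRET allele, at 2.00 and 4.12 TPM from C57 and 53.4 and 63.0 TPM from SPRET when basal (-3.91, adjusted p = 0.00851). The remaining members did not pass. For Cd74 the C57 allele gave 362 and 419 TPM beside 331 and 375 TPM from SPRET when basal and 972 and 884 TPM beside 742 and 566 TPM with IL-4 (0.52, adjusted p = 0.0615). Without replicate 2 of the basal F1 C57 × SPRET libraries none of the members was called or passed. Without basal replicate 1 or IL-4 replicate 1 the members called fell from 3 to 1 in either case.

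In F1 C57 × NOD no member passed limma's test, and 0.165% of all gene tests were called. Of 8 members tested, 2 had an unadjusted p under 0.05 when basal (H2-DMb1 and H2-DMb2) and 3 with IL-4 (these and H2-Eb1). Cd74 read 550 and 417 TPM from C57 and 587 and 491 TPM from NOD when basal. H2-DMb1, lower in NOD than in C57 between the strains, read 377 and 359 TPM from C57 and 219 and 270 TPM from NOD when basal and 338 and 401 TPM against 138 and 221 TPM with IL-4, without overlap but short of the threshold (0.59, adjusted p = 0.526, and 1.08, adjusted p = 0.259). H2-DMb2 was listed at 0 for the NOD allele in all 4 libraries, with 25.9 and 20.6 TPM from C57 when basal and 11.3 and 9.96 TPM with IL-4 (adjusted p = 0.0706 and 0.102). H2-Oa and Ciita were listed at 0 for both alleles in each library. Genes at 0 made up 78.9% to 83.6% of each allele column of this cross and 35.3% to 42.8% of each column of the other cross. No change of an allele ratio with IL-4 passed for any member in either cross, and 2 of 8 members in F1 C57 × NOD and 4 of 9 in F1 C57 × SPRET had an unadjusted p under 0.05.

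**Figure D5:**
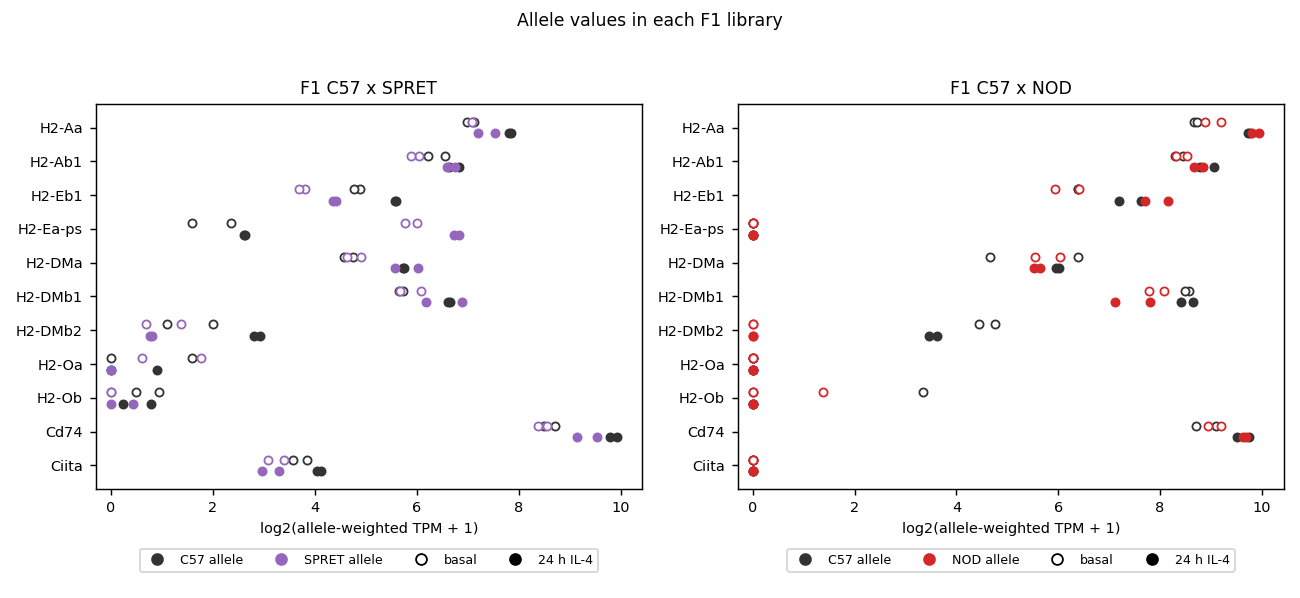
Allele values (TPM on the log2 scale of the tests, x axis) of members and H2-Ea-ps (y axis) in BMDMs of both F1 crosses. Values are given for the C57 allele and the other parent's allele in each of 2 libraries per group. Open and filled points tell basal libraries and those with 24 hours of IL-4 apart. In F1 C57 × SPRET both libraries give more H2-Eb1 from the C57 allele, at ratios of 2.19 to 2.44.

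Across the 29 libraries of the 5-strain table the members were related mainly through the strains. Pearson r on the log2 scale was 0.93 between Cd74 and H2-Ab1, 0.88 between Cd74 and H2-Aa, 0.85 between H2-DMa and H2-DMb1 and 0.75 between Cd74 and Ciita, but 0.27 between Cd74 and H2-Oa. After group means were removed, r was 0.27 between Cd74 and H2-Ab1 and -0.20 between Cd74 and Ciita. These values describe libraries that share strains and treatments and carry no test.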

How the data were processed

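Poly(A) RNA-seq of mouse BMDMs was analysed from 5 deposited tables of 69 libraries. Per the study's methods, the authors mapped reads with STAR to genomes rebuilt for each strain from mm10, returned positions to mm10, and counted exon reads with HOMER as TPM. For F1 libraries, the authors scaled each transcript's read counts by the ratio of reads covering parental variants and gave them to the parental genomes. The F1 columns are labelled TPM, but their levels need not be on the TPM scale of the other tables. The deposited TPM values carry no read counts per gene, so no count model was run. The authors' own fold-change and p-value columns and a human table were not used, and 0 columns of per-sample values lacked a sample.

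Values were tested as log2(TPM + 1) with limma 3.58.1 (R 4.3.3), 1 mean per group of each table and a mean-variance trend, on genes that reached 1 TPM in 2 or more libraries (11907, 12088 and 12079 genes in the strain, time-course and Egr2 tables). P-values are two-sided and were adjusted by Benjamini-Hochberg over all genes tested. A gene passed at adjusted p under 0.05 and was called when the difference also exceeded 2-fold on this scale, which understates low genes. F1 alleles were compared as log2 differences within libraries. On simulated data of the strain table, 78%, 98% and 100% of genes changed by 0.5, 1 and 2 log2 units were recovered (60%, 88% and 96% for the time course, 52%, 85% and 98% for Egr2). Figures were drawn with matplotlib 3.10.9.

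The members and lists were chosen with earlier results of these data known. Named from each other list were up to 4 called genes with the largest difference in a comparison, and some genes are not reported here. Promoters came from RefSeq (GRCm38.p6). Labels do not say whether replicates were separate mice, so p-values measure the spread between these samples. Over all groups, deviations of same-numbered libraries had a mean r of 0.013, 0.031 and -0.0046 in the 3 tables, and no libraries were identical. These means pool pairs within and across strains or genotypes and do not settle whether libraries were paired.

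Alternatives were pseudocounts of 0.1 and 5, no filter or a filter on the mean, median-ratio and quantile scaling, fits on only the groups compared, a replicate block and leaving out each library.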

Additional observations from a re-analysis of the deposited data

Results flagged for a closer look

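In 28 tests the IL-4 response of a member differed from that of C57 past the threshold, by the interaction term of the limma fit. SPRET with Cd74, H2-Aa, H2-Ab1 or H2-DMb1 is counted in both tables. Among the strains, 9 members were tested in each of BALB, NOD, PWK and SPRET. Of all genes, 15.8%, 33.3%, 22.4% and 33.4% passed in this order. In the time course 8 members were tested at each of 1, 6 and 24 hours, and 28.9% of all genes passed at 24 hours. At 24 hours in the 5-strain table the differences in log2 change that passed were, for BALB minus C57, -0.67 for Cd74, -0.29 for H2-Aa, -0.27 for H2-DMb1 and 0.51 for H2-Ob. For NOD minus C57 they were -0.58 for Cd74, -0.25 for H2-Aa, -0.36 for H2-DMa, -0.27 for H2-DMb1 and 0.66 for H2-Ob. For PWK minus C57 they were -0.83 for Cd74, -0.73 for H2-Aa, -0.75 for H2-Ab1, -0.47 for H2-DMa, -0.31 for H2-DMb1, -0.78 for H2-Eb1 and 0.64 for H2-Ob. For SPRET minus C57 they were -1 for Cd74, -0.51 for H2-Aa, -0.32 for H2-Ab1, 0.23 for H2-DMb1, -0.60 for H2-Eb1 and 0.67 for H2-Ob. The positive values of H2-Ob belong to its fall in C57 and to strains where, apart from BALB, it stayed at or below 0.245 TPM. Among the smaller of these differences, that of H2-DMb1 in SPRET ended under 8 of 37 other settings, H2-DMa in NOD under 7 of 37, H2-DMb1 in BALB under 6 of 37 and H2-Ob in BALB under 7 of 36.

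In the time course at 24 hours, SPRET minus C57 was -0.73 for Cd74, 0.64 for Ciita, -0.48 for H2-Aa, -0.41 for H2-Ab1, which ended under 18 of 24 other settings, 0.78 for H2-DMa and 0.53 for H2-DMb1. All differences of a table share the same C57 libraries.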

How the results depend on the processing

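Of 141 single results, 90 kept their side of the threshold under all settings run, 50 lost it under some, and 2 reversed (1 of them among those 50): with median-ratio scaling, H2-Aa with IL-4 in NOD became -0.036 and Cd74 in basal NOD minus C57 became 0.23. With a pseudocount of 0.1, members called rose from 0 to 1 for IL-4 in 5 strains, 1 to 3 for response differences, 0 to 2 for IL-4 in the time course and 3 to 5 for F1 alleles. With a pseudocount of 5, they fell from 13 to 7 at baseline, 1 to 0 for response differences, 2 to 1 for IL-4 in the Egr2 table, 5 to 2 between genotypes and 3 to 1 for F1 alleles. Median-ratio scaling gave 2 response differences, 1 IL-4 call in the Egr2 table and 3 between genotypes, and quantile scaling gave 0, 0 and 3. Fitting only the groups compared took the IL-4 changes passing in the time course from 17 to 7. The cause was not tested, apart from fewer libraries in that fit.

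Leaving out 1 library at a time gave, for members called and passing, 0 to 0 and 21 to 26 (IL-4, 5 strains), 13 to 13 and 29 to 32 (baseline), 0 to 2 and 19 to 22 (response differences, 2 without PWK basal replicate 2), 0 to 0 and 13 to 18 (IL-4, time course), 0 to 0 and 4 to 7 (response difference, time course), 0 to 3 and 15 to 20 (IL-4, Egr2 table), 4 to 7 and 20 to 22 (genotypes) and 0 to 4 and 0 to 5 (F1). IL-4 calls of the Egr2 table fell from 2 to 0 without Egr2MKO basal replicate 1 and to 1 without Egr2MKO 24-hour replicate 1 or 6-hour replicate 2.

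With the replicate block the pairs of called and passing counts were 0 and 23, 13 and 31, 1 and 22, 0 and 17, 0 and 6, 2 and 16, 5 and 20, and 3 and 3 in the same order. Deviations of same-numbered libraries correlated at -0.134 to 0.333, -0.143 to 0.266 and -0.139 to 0.0565. These ranges also hold pairs across strains or genotypes, so they do not settle whether libraries were paired within a strain or genotype. Depth per gene is unknown from TPM, which limits H2-DMb2, H2-Ob and H2-Oa most.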

Other observations

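Over the 29 libraries of the 5-strain table, the genes whose pattern was most like that of Cd74 on the log2(TPM + 1) scale were Prickle2 (Pearson r 0.97), Sdc2 (0.95), Cd2 (0.94), Mapk3 (0.93) and P4hb (0.92). Among those most like Ciita were Nynrin (0.94), Miga1 (0.93), Slc35a2 (0.93) and Mroh1 (0.92). The libraries share strains and treatments, and the values are descriptions with no test.

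Egr2 mRNA itself differed between the strains in which the class II genes were measured. It read 12.5 to 14.4 TPM in basal C57, 16.8 to 18.4 TPM in BALB, 24.8 to 31.7 TPM in NOD, 3.37 and 3.44 TPM in PWK and 1.87 to 2.20 TPM in SPRET. With 24 hours of IL-4 it read 48.7 to 62.0 TPM in C57, 35.5 to 40.5 TPM in BALB, 26.8 to 30.4 TPM in NOD, 15 to 18 TPM in PWK and 50.0 to 50.9 TPM in SPRET. Basal Cd74 was highest in BALB, where Egr2 lay between C57 and NOD, and a relation of Egr2 to class II mRNA across the strains was not tested.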
